A study of Mus musculus with 4 samples.

Results

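Keratin spots were chosen by their own keratin counts: a spot of at least 100 unique molecular identifiers (UMIs, counts of captured RNA molecules) in which Krt5, Krt14, Krt15, Krt4, Krt13, Krt12 and Krt19 together gave at least 3 UMIs. There were 54 of them among 4255 spots of at least 100 UMIs, and 4603 spots over tissue in all. They came from sections of the posterior eye of C57BL/6J mice on 4 capture frames of a Visium slide, 1 library per frame, each labelled as a separate biological replicate. The design concerns Wif1, a secreted Wnt inhibitor, delivered by an AAV2/2 vector, with a control and eyes taken 2 and 4 weeks later. All 4 frames carry the single treatment label Naive+AAV2/2, so controls and treated eyes cannot be told apart here and only spots of the same frame were compared. The labels name the tissue as retina and all retinal cell types, which hold no stratified epithelium. A Visium spot covers several cells, so each value below belongs to a small patch of tissue.

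The surface of the eye is covered by a stratified epithelium, corneal over the clear cornea and conjunctival over the sclera and inner lids. Its cells are filled with paired keratin filaments: Krt5 and Krt14 pair in the basal layer, Krt4 and Krt13 in the upper layers of moist epithelia such as conjunctiva, and Krt12 is the keratin of corneal epithelium. Neighbouring cells are held by desmosomes and sealed by claudins, and the corneal epithelium in particular carries large amounts of enzymes that remove aldehydes made by light.

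Keratin spots numbered 16, 6, 17 and 15 in frames 1 to 4, which was 1.48%, 0.515%, 1.71% and 1.48% of each frame's spots of at least 100 UMIs. The mean share was 1.30% ± 0.531 (SD, n = 4 frames), with frame 2 below the other frames. They held 15158, 3713, 18962 and 7358 UMIs, against 660970 to 1058044 in the other spots of a frame. Median UMIs per keratin spot were 742.5, 561, 906 and 503, against 598, 666, 661.5 and 480 in other spots. The 4 frames used a common barcode set: 1271 of 2458 distinct barcodes occurred in 2 or more frames, as did 4 barcodes of keratin spots. A level given in CPM is a gene's UMIs scaled to a total of 1000000 UMIs in the summed spots.

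Krt4 was the leading keratin of the rule. It gave 378 of the 576 rule keratin UMIs and was present in 49 of 54 spots, at 4816, 15351, 5221 and 20250 CPM in frames 1 to 4. Krt15, a keratin of basal and limbal cells, gave 89 UMIs in 24 spots, and Krt5 gave 49 UMIs in 18 spots. Krt13, the partner of Krt4, gave only 33 UMIs in 15 spots. Krt14, the partner of Krt5, gave 15 UMIs, of which 7 lay in 1 spot of frame 2. Krt19, a keratin of conjunctiva and limbus, gave 10 UMIs in 7 spots, with 0 in frame 4. Krt12 gave 2 UMIs, both in 1 spot of frame 1. Because these 7 genes chose the spots, their levels are a description and were not tested.

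Krt7, which is not in the rule, was the second most abundant keratin. It gave 185 UMIs in 20 keratin spots, at 2771, 14543, 2268 and 6252 CPM by frame, while the other spots held 16.1 to 61.4 CPM. Krt6b gave 20 UMIs and Krt6a gave 15, against 9 and 7 UMIs in all 4201 other spots. Both are keratins of activated or fast-renewing epithelium. Epidermal Krt1 had 0 UMIs and Krt10 had 1. All keratin genes were left out of the tests, so Krt7 is a description too. For Krt7, Krt6a and Krt6b the lowest frame of keratin spots lay above the highest frame of other spots.

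**Figure D1:**
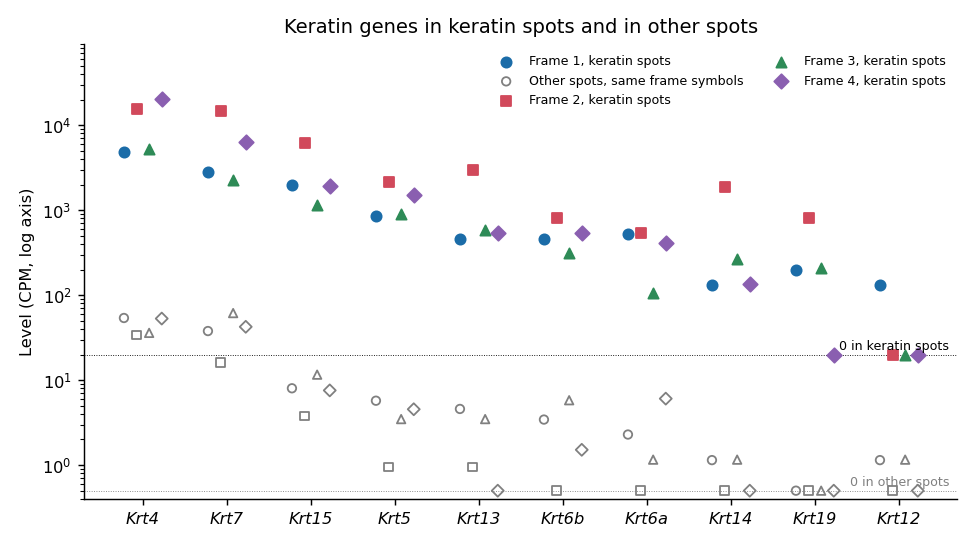
Level of 10 keratin genes (vertical axis, CPM on a log axis) in keratin spots (filled symbols, 1 per frame) and in the other spots of the same frame (open grey symbols). Dotted lines mark 0 UMIs on each side. Krt4 and Krt7 lead in keratin spots, and frame 2, with 6 spots, gives the highest Krt13, Krt14 and Krt15.

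The genes lie in the 2 keratin gene clusters of the mouse genome. In GRCm38.p6, Krt7 is at chr15:101412403-101427806, Krt6a at chr15:101689928-101694305, Krt5 at chr15:101707069-101712905 and Krt4 at chr15:101918535-101924735. Krt13 is at chr11:100117327-100121566, Krt15 at chr11:100131759-100135949 and Krt14 at chr11:100203162-100207510. Krt12 is in the same chr11 cluster at chr11:99415664-99422593.

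Spots differed widely in how much keratin they held. By rule keratins, 14 spots had 3 UMIs, 6 had 4, 12 had 5 to 9 and 22 had 10 or more. The richest held 58 keratin UMIs among 1642 in frame 3, and a spot of frame 4 held 56 among 657, or 8.52% of its RNA. In 24 spots Krt4 was the only rule keratin. A further 27 spots held 2 or more of the 7, and 3 spots held 1 keratin other than Krt4.

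A set of 5 further epithelial genes was set beside these classes after their values had been seen: Krt7, Aldh3a1, Gsto1, Acsm1 and Dsc2. The classes also differed in keratin amount, with a median of 11 rule keratin UMIs in the 27 spots and 4 in the 24 Krt4-only spots. Class was not separated from keratin amount. In the 27 spots with several keratins Krt7 stood at 6386 CPM, Aldh3a1 at 3787 CPM, Gsto1 at 2933 CPM, Acsm1 at 2747 CPM and Dsc2 at 2079 CPM. In the 24 Krt4-only spots the levels were 783 CPM for Krt7, 1205 CPM for Aldh3a1, 783 CPM for Gsto1, 482 CPM for Acsm1 and 542 CPM for Dsc2. Few of the 24 spots gave these UMIs: Krt7 was present in 4 of them, Aldh3a1 in 7, Gsto1 in 4 (7 of its 13 UMIs in 1 spot), Acsm1 in 6 and Dsc2 in 2, and the rest were at 0. Of the 54 spots, 16 held none of the 5 genes: 11 of the 20 spots with fewer than 5 keratin UMIs and 5 of the 34 with 5 or more. Of those 16 spots 1 held 3 UMIs of Cbr2 and another held 2 UMIs of Anxa1.

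**Figure D2:**
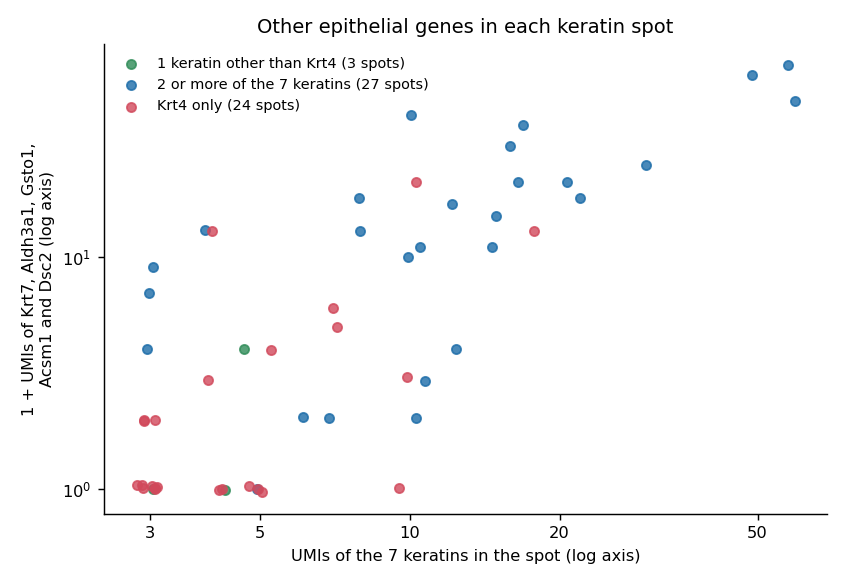
Each point is 1 of the 54 keratin spots: UMIs of the 7 rule keratins (horizontal, log axis) against 1 plus the UMIs of Krt7, Aldh3a1, Gsto1, Acsm1 and Dsc2 (vertical, log axis), with points shifted slightly to show overlaps. Colours give the 24 Krt4-only spots, the 27 with 2 or more keratins and the 3 with another single keratin; 16 spots lie at 1, meaning none of the 5 genes.

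The 14 spots with 3 keratin UMIs (just inside) had Aldh3a1 at 1297 CPM, Acsm1 at 648 CPM, Gsto1 at 108 CPM and Krt7 at 108 CPM. The 23 spots with 2 keratin UMIs (just outside) had Aldh3a1 at 1796 CPM, Acsm1 at 314 CPM, Gsto1 at 449 CPM and Krt7 at 1033 CPM. Gsto1 and Krt7 were thus higher just outside the threshold than just inside it, on 1 UMI each inside. Spots with 0 keratin UMIs held 90.1 CPM of Aldh3a1 and 28.9 CPM of Krt7. Aldh3a1 was present in 56.5% of the spots with 2 keratin UMIs (95% exact binomial interval 34.5 to 76.8) and in 77.3% of those with 10 or more (54.6 to 92.2). Intervals of shares cover counting error only.

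**Figure D3:**
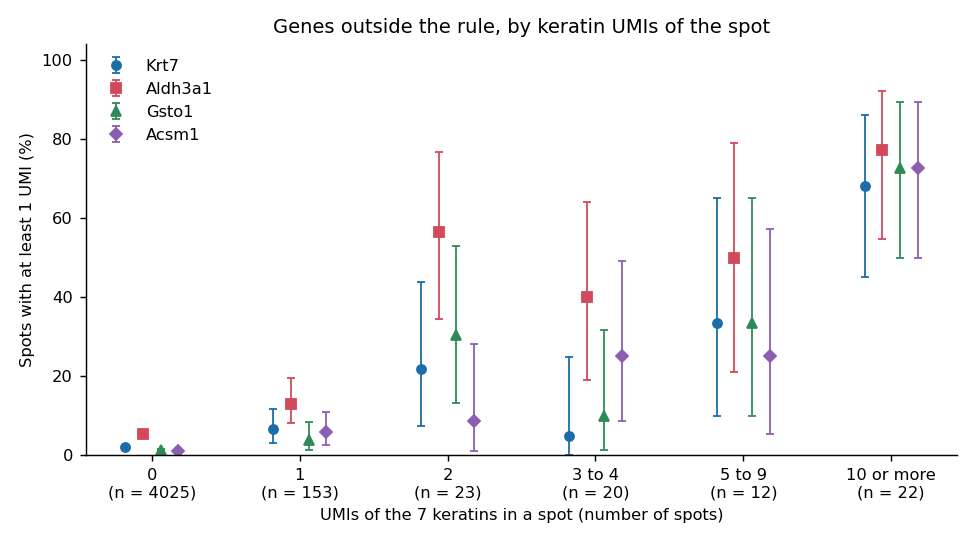
Share of spots with at least 1 UMI of Krt7, Aldh3a1, Gsto1 or Acsm1 (vertical, percent, with 95% exact binomial intervals) by the number of rule keratin UMIs in the spot (horizontal, with the number of spots). The shares lie at 1.17% to 5.32% in the 4025 spots with 0 keratin UMIs and at 68.2% to 77.3% in the 22 spots with 10 or more.

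A low level of keratin RNA was found away from these spots. Rod-rich spots, taken as other spots with at least 3 UMIs of the rod genes Sag, Gngt1 and Pdc, should lack surface epithelium. Of 1339 such spots 5.75% had a rule keratin UMI, and Krt4 stood there at 47.04 CPM against 43.1 CPM in all other spots. Their median UMIs per spot were 723 to 1064 by frame, in each frame above that of keratin spots. Aldh3a1 stood at 98.7 CPM in rod-rich spots and 106 CPM in all other spots. Against these levels Krt4 was 8364 CPM and Aldh3a1 2722 CPM in the pooled keratin spots. Outside the rule 4 spots held 3 or more Krt7 UMIs and 23 held 3 or more Aldh3a1 UMIs.

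To ask which other genes mark the keratin spots, UMIs were summed per frame for keratin spots and for other spots and compared within frames 1, 3 and 4. Frame 2, with 6 keratin spots, was below the minimum of 10. The enzyme genes Gsto1, Aldh3a1, Cbr2, Adh7 and Acsm1, the desmosome genes Dsc2 and Perp, the claudin Cldn7 and the squamous genes Anxa1 and Lgals7 were among those higher in keratin spots. The neuronal genes Nefl and Snap25 and the ribosomal RNA loci Gm42418 and AY036118 were among those lower. On the lists that hold these genes, other than the desmosome list, most tested members did not pass. Of 4501 genes tested, 18 were higher (0.400%) and 6 lower (0.133%) at an adjusted p under 0.05 by edgeR's quasi-likelihood test with Benjamini-Hochberg adjustment. The same spots were used to choose and to test, with all keratin genes left out. The filter on low counts adds a limit. A gene rare in all sums of other spots was tested only if every keratin sum held UMIs of it. Perp, Prss27, Lgals7, Asprv1, Ap1m2, Cldn7, Adh7, Gm16136, Sdc1, Ifitm1, Cd24a, Cbr2 and Dsc2 entered in this way. Their means in other spots were 3.20 to 25.7 CPM. Genes as rare there and absent from keratin spots were not tested. With no filter 16746 genes were tested, of which 16 were higher (13 of the 18 among them) and 22 lower.

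The trimmed-mean scaling put the median log2 fold of all tested genes at -0.74 in this comparison, and scaling by library totals put it at -0.20. Folds are read against that median: those of higher genes are smaller than with library totals, and those of lower genes larger. With library totals 26 genes were higher, all 18 among them, and 3 were lower, so the share higher among called genes was 89.7% against 75.0%. The ± beside a log2 fold is the SD over the separate folds of 3 frames, computed with a prior count of 2. In these sums a larger share of epithelial cells and more RNA per cell cannot be told apart.

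The enzyme genes had some of the largest differences. Gsto1, a glutathione transferase, held 1715, 5925, 791 and 4213 CPM in the keratin spots of frames 1 to 4. It held 7.56 to 38.9 CPM in other spots, without overlap. Its log2 fold was 5.68 ± 1.70 (n = 3 frames, edgeR adjusted p = 2.9e-16). Aldh3a1, the aldehyde dehydrogenase that makes up much of the soluble protein of mouse cornea, held 4354, 2155, 1846 and 1903 CPM against 71.1 to 140 CPM. The lowest keratin value was thus more than 10 times the highest value of other spots, and the log2 fold was 3.95 ± 0.60 (edgeR adjusted p = 1.5e-12).

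Cbr2, a carbonyl reductase, held 1056, 844 and 2175 CPM in frames 1, 3 and 4 and 0 UMIs in frame 2, against 13.2 to 27.8 CPM in other spots. With 3713 UMIs in its keratin spots, a count of 0 in frame 2 allows up to 808 CPM, so that a difference there was not detectable at this depth. The log2 fold over the other frames was 5.18 ± 0.85 (edgeR adjusted p = 1.3e-10). Adh7, an alcohol dehydrogenase that oxidises retinol, rested on 16 UMIs in 10 spots and had a log2 fold of 4.74 ± 1.67 (edgeR adjusted p = 4.1e-06). Without frame 3 or without frame 4 Adh7 did not pass. Acsm1, an acyl-CoA synthetase for medium-chain fatty acids, held 1451, 4040, 1529 and 2175 CPM against 9.08 to 40.6 CPM in other spots. All 4 frames of keratin spots lay above all frames of other spots, with a log2 fold of 5.47 ± 0.89 (edgeR adjusted p = 4.4e-15).

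The redox and detoxification list had 29 genes, 21 of them tested; 2 were higher (Gsto1 and Cbr2) and none lower. The other 19 had no call, and the median log2 fold of the 21 tested was -0.11 against -0.74 over all genes tested. Mt2, Fth1 and Sod1, abundant in retina as well, were among those without a call.

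Desmosome genes came next. Dsc2, a desmosomal cadherin, held 1253, 2424, 686 and 3262 CPM in keratin spots and 14.2 to 28.8 CPM in other spots. The groups did not overlap, and the log2 fold was 5.21 ± 0.81 (edgeR adjusted p = 1.5e-12). Perp, a membrane protein needed for desmosome assembly, passed on 7 UMIs in 5 spots, with a log2 fold of 4.95 ± 0.68 (edgeR adjusted p = 3.2e-05) and no UMI in frame 2. Perp was tested in only 6 of 16 alternative settings, and with no filter it did not pass. Of the 15 desmosome genes 12 had at least 1 UMI in keratin spots, but only Dsc2 and Perp passed the filter on low counts. Both were rare in other spots and entered through their keratin sums. Dsc3 had 5 UMIs in keratin spots and 1 in all other spots, and the plakin gene Ppl had 4 and 3. Dsp, the plakin of every desmosome, had 1 UMI. Summed desmosome RNA was 1160 to 4213 CPM in keratin spots and 59.5 to 69.5 CPM in other spots. Of the list's 99 UMIs in keratin spots 65 were of Dsc2, so the sum mostly restates that gene.

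Among junction genes, Cldn7, a tight-junction claudin, held 264, 1616, 264 and 1767 CPM against 0.945 to 9.27 CPM. Its log2 fold was 5.35 ± 1.31 (edgeR adjusted p = 7.2e-06). It was the 1 gene to pass of 5 tested on the junction list of 20. Epcam had 1 UMI and Cdh1, which encodes E-cadherin, had 2. Ap1m2, the epithelial subunit of a clathrin adaptor that sorts proteins to the basolateral membrane, held 1122, 269, 316 and 544 CPM against 0 to 12.1 CPM. Every frame of keratin spots exceeded every frame of other spots, but the frame 2 value was 1 UMI among 3713. In a sum that small, 1 UMI of any gene rare in other spots gives no overlap. The log2 fold over frames 1, 3 and 4 was 5.67 ± 1.11 (edgeR adjusted p = 2.8e-06).

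On the list of squamous and cornified genes 9 of 34 were tested and 2 passed. Anxa1, a phospholipid-binding annexin of the upper layers, held 2045, 4579, 633 and 4757 CPM against 110 to 166 CPM. Frame 3 was the lowest of the keratin sums and still above all others, and the log2 fold was 3.27 ± 1.25 (edgeR adjusted p = 3.9e-07). Lgals7, galectin-7 of stratified epithelia, rested on 14 UMIs in 10 spots with a log2 fold of 5.10 ± 0.98 (edgeR adjusted p = 9.1e-07). The median log2 fold of the 9 tested genes was 2.38, against -0.74 over all genes tested. It does not describe the whole list, of which 18 genes were at 0 UMIs in keratin spots. A list gene rare in other spots was tested only if every keratin sum held it, which raises this median.

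A further 3 of that list missed the threshold here and passed with library totals: Lgals3 (log2 fold 2.38, edgeR adjusted p = 0.092), S100a11 (3.16, edgeR adjusted p = 0.092) and S100a6 (2.50, edgeR adjusted p = 0.27). S100a14 had 9 UMIs in keratin spots and 3 elsewhere, and Csta1 had 4 and 0. Genes of a cornified layer were listed at 0 UMIs in keratin spots: Flg, Lor, Ivl, Krtdap, Sprr1a, Sprr1b and Sprr3. With 45191 UMIs in all, a count of 0 allows up to 66.4 CPM.

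Asprv1, a protease first known from skin, held 792, 2963, 106 and 544 CPM against 2.84 to 8.01 CPM. It had a log2 fold of 5.35 ± 1.29 (edgeR adjusted p = 4.2e-06) and was the 1 gene to pass on the eyelid skin, hair and meibomian list. Of the 16 genes on that list 14 were at 0 UMIs in keratin spots, the meibomian genes Awat2, Elovl3 and Scd3 among them. Sdc1, the syndecan of epithelial cells, rested on 12 UMIs, with 462, 0, 52.7 and 544 CPM by frame and a log2 fold of 4.01 ± 2.31 (edgeR adjusted p = 5.0e-04). Its frame 3 value was nearest to that of other spots (23.2 CPM), and it did not pass without frame 1, 3 or 4.

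Prss27, a membrane serine protease, had 10 UMIs and a log2 fold of 4.73 ± 0.91 (edgeR adjusted p = 9.0e-05). Prss27 was tested in 9 of 16 alternative settings and did not pass with no filter or without the replicate block. Gm16136 had 29 UMIs and a log2 fold of 5.25 ± 0.67 (edgeR adjusted p = 6.6e-06), and did not pass without frame 3. The 3 remaining higher genes fall outside the naming rule and are given after their values were seen. They are Emp1, an epithelial membrane protein (log2 fold 4.19), Cd24a, a surface glycoprotein (3.48), and Ifitm1, an interferon-induced membrane protein (3.23). None of these 3 passed when any 1 of the 3 frames was left out.

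**Figure D4:**
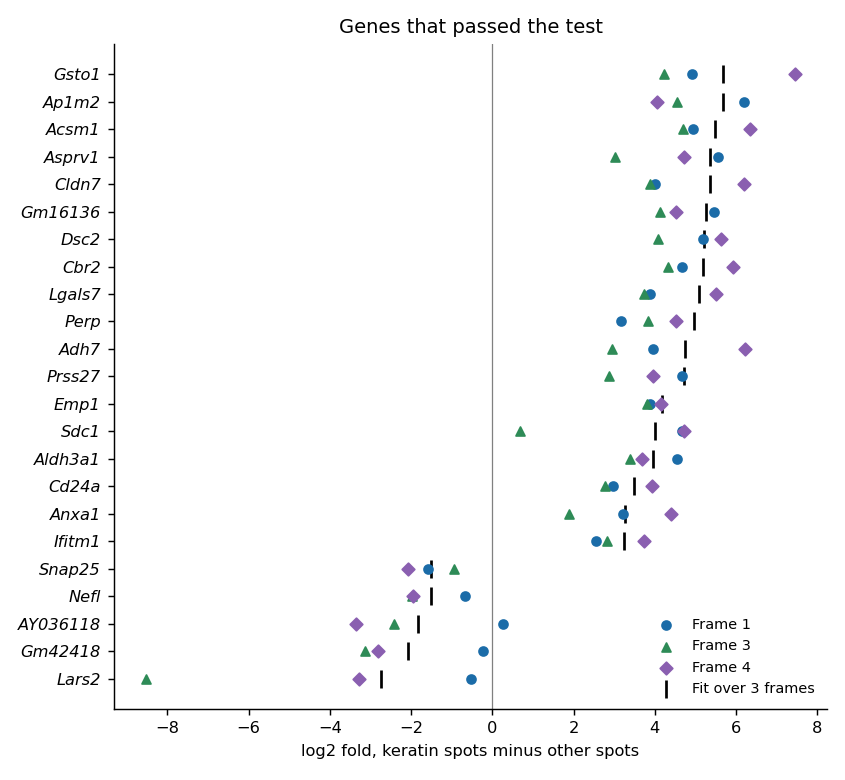
Log2 fold of keratin spots minus other spots (horizontal) for genes that passed, in frames 1, 3 and 4 (coloured symbols, trimmed-mean scaling and prior count of 2) and in the fit over 3 frames (black bars). The 18 higher genes lie above 0 in every frame; AY036118 lies above 0 in frame 1, and Lars2 in frame 3, with 0 UMIs in keratin spots, lies farthest below.

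Of the 6 lower genes 5 are described. Gm42418 and AY036118 lie in ribosomal RNA repeats, and Lars2 counts are known to include ribosomal RNA. The log2 fold of Lars2 was -2.74 ± 4.06 and that of Gm42418 was -2.09 ± 1.59. In frame 1 both were close to other spots: Lars2 held 792 CPM against 889 CPM, and Gm42418 8049 CPM against 7342 CPM.

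Nefl, a neurofilament of ganglion cell axons, held 2705, 2693, 1424 and 2582 CPM against 3334 to 5133 CPM in other spots (log2 fold -1.52 ± 0.75, edgeR adjusted p = 0.0043). Snap25, a synaptic protein of retinal neurons, held 1517, 808, 2004 and 1631 CPM against 2950 to 3605 CPM (log2 fold -1.51 ± 0.57, edgeR adjusted p = 0.012). Every frame of keratin spots lay below every frame of other spots for both genes. With library totals Nefl, Snap25 and AY036118 no longer passed (edgeR adjusted p = 0.27, 0.40 and 0.054), while Lars2 and Gm42418 did. Without frame 3 Lars2 (edgeR adjusted p = 0.16), Nefl (0.83), Snap25 (0.21) and AY036118 (0.74) did not pass. Without frame 4 Lars2 (edgeR adjusted p = 0.23), Gm42418 (0.81) and AY036118 (0.27) did not, and without frame 1 Snap25 did not (0.073). DESeq2 called none of these 5, at adjusted p-values of 0.26 for Lars2, 0.74 for Gm42418 and 0.999 for the others, and without the replicate block Lars2, Gm42418 and AY036118 did not pass. AY036118, whose frame 1 value was higher in keratin spots, falls outside the naming rule.

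Keratin spots held much retinal RNA. Of 11 ganglion cell genes tested Nefl alone was lower and of 10 inner retina genes Snap25 alone. All 18 photoreceptor genes had UMIs in keratin spots, and of the 17 tested none passed. Their summed level was 10234 to 35334 CPM in keratin spots and 29867 to 36965 CPM in other spots. Whether free RNA or photoreceptor cells under the same spot gave these UMIs was not tested.

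Corneal and conjunctival markers were read from lists, and each gave a partial match. Of the 20 corneal genes 7 were tested and 3 passed, Aldh3a1, Gsto1 and Adh7. Of the 5 fixed corneal markers Krt12 had 2 UMIs, Tkt 3, Aqp5 5, Slurp1 0 and Aldh3a1 123. Pax6, the eye master regulator that corneal epithelium and inner retina both express, had 1 UMI in keratin spots and 295 elsewhere. On the conjunctival and goblet list no gene reached the filter, and 15 of 20 were at 0 UMIs. Aqp3, a water and glycerol channel of conjunctiva, had 14 UMIs in 7 keratin spots and 7 UMIs in all other spots. Muc4, a membrane mucin, had 7 and 2. The goblet cell genes Muc5ac, Agr2 and Spdef were all at 0. All 17 lacrimal gland genes in the matrix were at 0, as were 14 of 15 lens genes, Cryab (3 UMIs) being the exception.

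No spot had more Krt12 than Krt4 and Krt13 UMIs, so a planned comparison of such spots with Krt4 and Krt13 spots could not be made. All 7 keratins of the label were detected, Krt12 in 1 spot only, but these genes chose the spots. Desmosome and claudin genes lay beside them, Dsc2 giving most of the desmosome UMIs. Epcam, Cdh1, Dsp, Trp63 and Itgb4 had few or no UMIs. The data do not assign the spots to cornea or conjunctiva, and they are called keratin spots here.

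Transcription factors of epithelium were near the limit of these counts. Of 24 regulators 11 had a UMI and 4 were tested, with none called. Elf3, an ETS factor of epithelial differentiation, had 8 UMIs in 5 keratin spots and 2 UMIs in all other spots, a ratio of 306 (95% counting interval 61.1 to 2957). That interval covers counting error of UMIs pooled over frames, not the spread between frames or spots. Klf4 had 10 UMIs at 264, 808, 106 and 136 CPM against 30.1 to 44.6 CPM, and Klf5 had 5 UMIs. Trp63, the p63 factor of basal cells, and Grhl2 had 0.

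Of the basal and hemidesmosome list 8 of 24 genes were tested and Sdc1 alone passed. Itgb4, the hemidesmosome integrin, was at 0 and Col17a1 had 2 UMIs. Of 3 proliferation genes tested none passed, and Mki67 had 1 UMI.

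Wnt genes were listed because the study's vector carried a Wnt inhibitor. Wif1 itself had 1 UMI in keratin spots and 57 in other spots. Of the 24 Wnt antagonists 4 were tested, and of 38 Wnt ligand, receptor and pathway genes 8 were tested, with none called in either. Wnt7b, a ligand of surface epithelia, had 5 UMIs in 3 keratin spots, 2 in frame 1 and 3 in frame 4, and 0 UMIs in 4201 other spots. It was at least 127-fold higher by a floor of 3 UMIs over the other spots, and it was named after its value was seen. Wnt7b was below the filter, so it was not tested.

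Marker lists of neighbouring tissues were summed in the same spots, and no gene of the fibroblast, plasma cell or melanocyte list passed. The fibroblast list had 13 of 20 genes detected, with a summed level of 2693 to 6223 CPM in keratin spots and 1343 to 1939 CPM in other spots. Lum, Kera and Pdgfra were at 0, and 9 genes were tested. Of the 63 Col1a1 UMIs in keratin spots 31 lay in 1 spot of frame 3. The plasma cell list had 6 of 8 detected, at 951 to 6645 CPM against 748 to 1832 CPM, with Mzb1 at 0 and 5 tested. The ranges overlapped. Of its 100 Igkc UMIs 53 lay in 1 spot. The melanocyte list had 7 of 10 detected, at 544 to 7225 CPM against 784 to 3232 CPM, with Mitf at 0 and 6 tested. Its frame 4 sum was lower in keratin spots (544 CPM) than in other spots (784 CPM). Their part in the results was not tested.

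**Figure D5:**
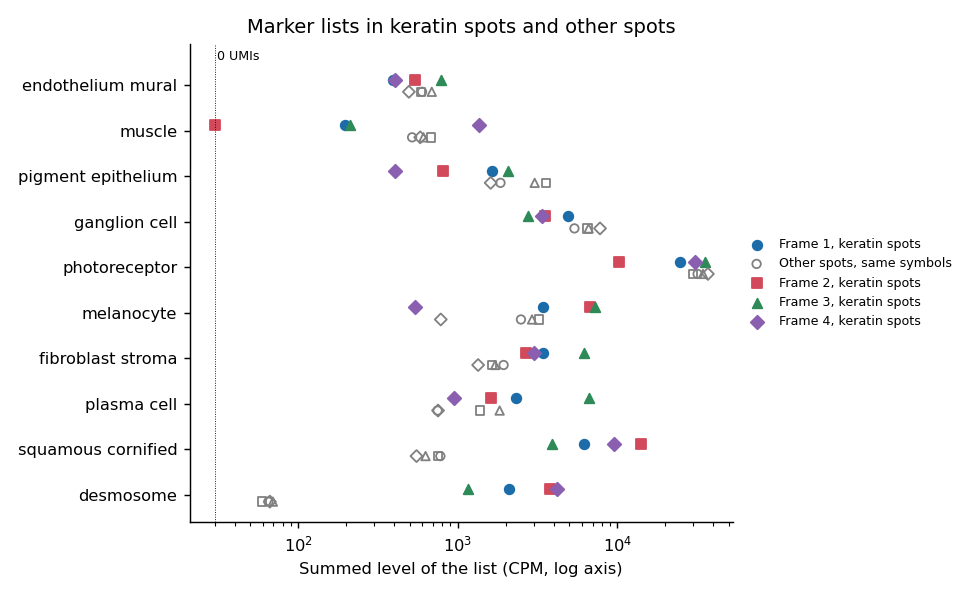
Summed level of 10 marker lists (horizontal, CPM on a log axis) in keratin spots (coloured symbols, 1 per frame) and in other spots of the same frames (open grey symbols). Desmosome and squamous lists separate fully; fibroblast sums in keratin spots also lie above those of other spots, and photoreceptor sums overlap.

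The fibrous coat of the eye is the tissue most like a neighbour of the surface epithelium, so keratin spots were also compared with 220 fibrous spots, other spots with at least 3 UMIs of Col1a1, Col1a2 and Dcn. Ap1m2, Acsm1, Dsc2, Gsto1, Gm16136, Cbr2, Anxa1, Aldh3a1, Emp1, Lgals3, Galnt18 and Drg2 were higher in keratin spots. Both comparisons use the same keratin sums. Of 540 genes tested 12 were higher (2.22%) and 1 lower (0.185%) at an edgeR adjusted p under 0.05, and the median log2 fold of all tested genes was -0.11. The filter limits this comparison as well: a gene rare in all fibrous sums was tested only if every keratin sum held UMIs of it. Ap1m2, Gm16136, Dsc2, Acsm1, Gsto1, Cbr2 and Lgals3, at means of 3.16 to 76.9 CPM in fibrous spots, entered in this way. Genes as rare there and absent from keratin spots were not tested. With no filter 12811 genes were tested, of which 10 were higher (8 of the 12 among them) and 10 lower. Of the 54 keratin spots 8 also met the fibrous rule; they were counted as keratin spots.

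Against fibrous spots the log2 fold was 6.70 ± 0.75 for Ap1m2 (edgeR adjusted p = 1.7e-04), whose fibrous level was 9.48 CPM in frame 1 and 0 in the other frames. It was 5.67 ± 0.80 for Acsm1 (edgeR adjusted p = 2.6e-06) and 5.55 ± 1.57 for Dsc2 (edgeR adjusted p = 1.3e-05). Gsto1 had a log2 fold of 5.39 ± 1.76 (edgeR adjusted p = 2.2e-05), and Aldh3a1 one of 2.93 ± 0.71 (edgeR adjusted p = 7.5e-04). Aldh3a1 stood higher in fibrous spots (171 to 403 CPM) than in all other spots (71.1 to 140 CPM).

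Lgals3, galectin-3, held 594, 1885, 527 and 1631 CPM in keratin spots and 61.5 to 88.9 CPM in fibrous spots, without overlap (log2 fold 3.27 ± 0.73, edgeR adjusted p = 0.0037). Galnt18, of the family that starts sugar chains on proteins, and Drg2, a GTP-binding protein, also passed, with log2 folds of 2.60 and 2.51; they fall outside the naming rule. Of the 33 Drg2 UMIs 20 lay in 1 spot. Olfml3, a secreted matrix protein, was the 1 lower gene. It held 66.0, 0, 105 and 136 CPM in keratin spots against 512 to 1289 CPM in fibrous spots, with a log2 fold of -3.35 ± 0.34 (edgeR adjusted p = 0.0016). Without frame 3, 4 genes were higher and none lower (44 genes at an unadjusted p under 0.05), and without the most keratin-rich spot of each frame 4 were higher.

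Upstream sequences were set beside the genes called higher against other spots. Whether these genes vary together was not tested. RefSeq promoters of GRCm38.p6, read as the 250 bases before each start, were found for 13 of the 18 genes and not for Aldh3a1, Cd24a, Dsc2, Gm16136 or Perp. A set of 4 motifs of factors known from epithelia were searched on both strands. The AP-1 motif TGANTCA was in 2 of 13 (15.4%), against 6.87% of 27025 promoters. The KLF motif CCNCNCCC was in 7 (53.8%), against 45.6%. The ETS motif AGGAAG was in 4 (30.8%), against 29.2%, and the GRHL motif AACNNGTT was in 0, against 3.63%. No base of these promoters lay in matches of 2 motifs. With 13 promoters these shares are a description, and a match is not a site.

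The promoters of Adh7 and Emp1, which hold AP-1 matches, and of Gsto1, which has the largest fold, are shown 5′ to 3′ on the gene's strand with motif matches in capitals. Adh7 (chr3:138217523-138217772, plus strand) has 1 AP-1 match, Emp1 (chr6:135362681-135362930, plus strand) has 2, and Gsto1 (chr19:47854723-47854972, plus strand) has 1 KLF match.
Adh7: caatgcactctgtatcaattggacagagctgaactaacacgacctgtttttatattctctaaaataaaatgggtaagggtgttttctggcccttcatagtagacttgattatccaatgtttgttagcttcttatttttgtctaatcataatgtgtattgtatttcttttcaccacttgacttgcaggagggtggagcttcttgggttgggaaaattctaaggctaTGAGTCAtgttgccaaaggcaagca
Emp1: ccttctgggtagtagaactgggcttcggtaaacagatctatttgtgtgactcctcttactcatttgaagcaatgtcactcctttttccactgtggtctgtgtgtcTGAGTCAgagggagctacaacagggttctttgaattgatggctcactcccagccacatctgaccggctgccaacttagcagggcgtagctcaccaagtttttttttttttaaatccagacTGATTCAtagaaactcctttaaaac
Gsto1: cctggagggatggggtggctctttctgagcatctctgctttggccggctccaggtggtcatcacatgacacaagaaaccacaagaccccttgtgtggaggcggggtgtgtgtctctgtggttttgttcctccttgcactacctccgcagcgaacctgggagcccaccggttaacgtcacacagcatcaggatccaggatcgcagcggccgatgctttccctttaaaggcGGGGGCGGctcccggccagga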

How the data were processed

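Values were counts: the deposited matrices hold whole numbers of UMIs per gene and spot, made by the authors. The file headers name Space Ranger 2.0.0, and the submitters' processing notes name mm10; how reads were aligned and annotated is not given in the sources used here. Only spots called over tissue are in the matrices; spot positions were not used here. The spot rule, gene lists, named genes and comparisons were chosen with earlier results of these data known. UMIs of keratin spots and of the spots they were compared with were summed per frame, with all 53 keratin genes left out; Col1a1, Col1a2 and Dcn were also left out against fibrous spots. A frame entered with at least 10 spots on each side, which left frames 1, 3 and 4. Genes passing filterByExpr (minimum count 10) were scaled by TMM and tested with edgeR 4.0.16 (robust quasi-likelihood, frame as block, Benjamini-Hochberg, limit 0.05); DESeq2 1.42.0 was an alternative. The code was tested on simulated data. P-values rest on 3 frames, with each gene's variability estimated in part from all tested genes. A small p-value is therefore not a measure of a gene's own spread between frames, which the ± beside a log2 fold gives. Frames carried 674029 to 1066633 UMIs in all.

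The frame pairs both sums because they come from the same library; after side means were removed the 2 sums of a frame correlated at 0.049, 0.083 and 0.066 against other spots, and at 0.049, 0.154 and 0.187 against fibrous spots. The text names, from the comparison with other spots, genes that passed with 1 direction in every frame (the 12 highest and 8 lowest folds), at most 3 genes of each list by lowest p-value, and a fixed set; from the fibrous comparison it names 6 each way. It gives most of them. The 33 lists held 587 genes, 585 of them in the matrices. Some results on single genes are not reported here.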

Additional observations from a re-analysis of the deposited data

Results flagged for a closer look

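Among 46 sets of frame values checked, 6 had 1 frame far from the others by Dixon's criterion, which chance meets in about 1 of 20. In frame 2, whose keratin spots number 6, Krt15 (6194 CPM against 1160 to 1979 CPM in the other frames), Krt13 (2963 CPM against 462 to 580 CPM) and Krt14 (1885 CPM against 132 to 264 CPM) were high; 7 Krt14 UMIs lay in 1 spot. Aldh3a1 was high in frame 1, at 4354 CPM against 1846 to 2155 CPM. Nefl was low in frame 3, at 1424 CPM against 2582 to 2705 CPM. Sag, the rod arrestin, was high in frame 3, at 1529 CPM against 808 to 858 CPM.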

How the results depend on the processing

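Settings on frames of at least 5 spots, library totals and leaving out the richest spots were chosen after the data were seen. The mean share of keratin spots was 1.84% with a minimum of 2 keratin UMIs and 0.526% with 10. Against other spots, genes called lower numbered 3 with RLE scaling, 3 with library totals, 22 with no filter, 33 with no replicate block, 1 with DESeq2, 10 with a minimum of 5 keratin UMIs, 17 with 10, and 82 where keratins were at least 1 percent of UMIs. Leaving out 1 frame gave 2 (without frame 3) to 13 (without frame 4) lower and 10 (without frame 3) to 12 higher; without frame 1 it was 11. Without the replicate block 37 were higher (17 of the 18 among them), and without the richest spots 12. Against fibrous spots, genes called lower numbered 10 with no filter, 0 with a minimum of 10 keratin UMIs (39 at an unadjusted p under 0.05 by edgeR, and DESeq2 called 1 in the main setting) and 3 at 1 percent. Genes higher numbered 20 at 1 percent, 4 without the richest spots and 4 to 12 with 1 frame left out, where 0 to 1 were lower. The cause of these moves was not tested. Of the 24 calls against other spots 10 passed in every setting that tested them (Gsto1, Ap1m2, Acsm1, Asprv1, Cldn7, Dsc2, Cbr2, Lgals7, Aldh3a1 and Anxa1) and 14 were lost in some; of the 13 against fibrous spots 4 passed throughout (Acsm1, Dsc2, Gsto1 and Aldh3a1) and 9 were lost in some. None changed direction. Depth limits the low genes: 30.8% to 61.1% of tested genes were at 0 UMIs in a frame's keratin sum against other spots.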
